A study of Mus musculus with 6 samples.

Results

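The BCL2 family decides whether the mitochondrial outer membrane stays intact or is opened to release cytochrome c, the step that commits a cell to apoptosis. Pro-survival proteins such as MCL1, BCL-XL and BCL2 hold the pore-forming effectors BAX and BAK in check, and BH3-only proteins such as BIM, PUMA, NOXA and BID tip the balance by binding either side. Embryonic stem cells are known to stand close to this threshold, and several transcripts of the family are known targets of microRNAs. The 10 genes described here were chosen by name. They are the pro-survival genes Mcl1, Bcl2l1 and Bcl2, the effectors Bax, Bak1 and Bok, and the BH3-only genes Bcl2l11, Bbc3, Pmaip1 and Bid, out of 31879 genes in the isoforms used. The table holds 65 isoforms of them, and all 65 met the rule for use, which asked for at least 200 nt and a match or a shared splice junction with a named transcript.

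The cells were mouse embryonic stem cells of TT-FHAgo2, a clonal line with doxycycline control over Argonaute 2 (Ago2), which binds microRNAs and represses the mRNAs they pair with. One condition was kept off doxycycline for 96 h (2 libraries). The other received 2.5 µg/mL doxycycline for 48 h, a dose given in the labels for wild-type Ago2 (2 libraries). Both conditions share the line, its propagation in 0.1 µg/mL doxycycline, medium with serum and leukemia inhibitory factor, and the UTP kind of strand-specific polyA library. No library was kept at that 0.1 µg/mL dose, so a change on withdrawal and a change on the higher dose cannot be told apart. Dose and hours differ together and cannot be told apart either. Below, rose and fell mean only higher and lower off doxycycline than with it. Nothing in the labels ties the libraries to separate cultures, so p-values describe the spread between these libraries, which may be technical. The 2 samples with spike-in standards were not analysed here.

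Values are FPKM, fragment counts scaled to transcript length and library size, summed over the isoforms of a gene. The 2 libraries of a condition are numbered 0 and 1 in the files, and pairs of values below follow that order. Ago2 itself stood at 28.7 and 28.8 FPKM off doxycycline, against 35.2 and 36.7 FPKM with it. That log2 change of -0.32 passed the test (limma adjusted p = 0.0293), but it did not pass in 7 of 16 alternative analyses. All 8 stem cell markers looked at reached 1 FPKM, with sums between 4073 and 4632 FPKM off doxycycline and between 3853 and 4321 FPKM with it. Among them Nanog was higher off doxycycline and Zfp42 and Klf4 were lower (limma adjusted p = 0.0386, 0.0209 and 0.0292). The 5 fibroblast markers summed to at most 2.92 FPKM in any library, most of it Thy1, and Col3a1 was listed at 0. The 4 primitive endoderm markers summed to between 1.54 and 1.63 FPKM off doxycycline and between 0.670 and 0.996 FPKM with it, most of it Gata4, which reached 1 FPKM only off doxycycline. The part of these marker shifts in the results below was not tested. In bulk RNA, a change in the share of cells that express a gene and a change in the RNA per cell cannot be told apart.

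Off doxycycline, 3 of the 4 BH3-only transcripts were higher and 1 was lower, and 1 of the 3 effectors was lower. Neither of the 2 pro-survival transcripts tested passed, with the libraries taken as unpaired, and Bcl2 was too low to test. Bcl2l1 passed in 2 of 16 alternative analyses and Mcl1 in 1. Bcl2l11, Pmaip1 and Bbc3 were higher by factors of 1.48, 1.43 and 1.30 in mean FPKM. Bok stood at 0.492 and Bid at 0.727 of their levels with doxycycline. Of the 9 members that reached the minimum of 1 FPKM for testing, 5 passed limma at an adjusted p under 0.05, beside 40.3% of all 13268 genes tested. In each direction, 3 members were higher, beside 19.4% of all genes, and 2 were lower, beside 20.9%. The libraries of the conditions did not overlap for 6 of the 9, beside 73.1% of all genes. The median absolute log2 change was 0.37 over the 9 members and 0.32 over all genes tested, and the median signed change 0.05 and -0.06. The share of members called rests on 9 genes and is read here only beside that of all genes. Scaled as TPM, the median change of all genes moved to 0.10, and the 5 members kept their calls and directions.

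**Figure D1:**
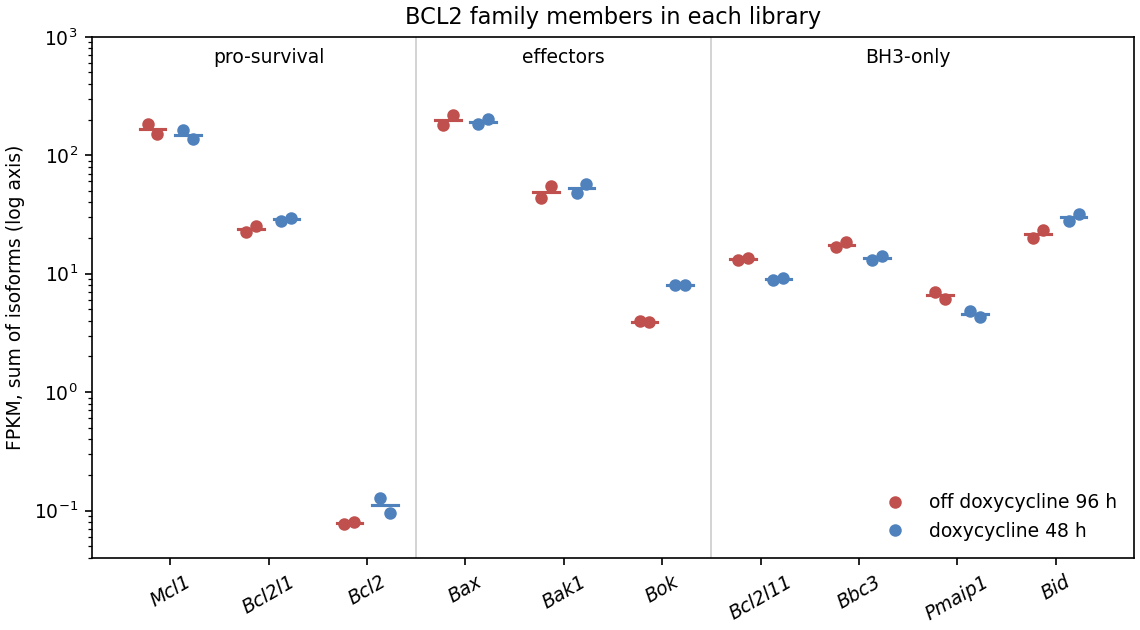
FPKM of each member (sum of isoforms, log axis) in the libraries off doxycycline for 96 h (red, left of each pair) and with doxycycline for 48 h (blue, right). Points are libraries and bars their means. Bok and Bid sit lower and Bcl2l11, Bbc3 and Pmaip1 higher in both libraries off doxycycline, and Bcl2 reaches at most 0.128 FPKM in any library.

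Among the pro-survival genes, Mcl1 carried most of the RNA. MCL1 is a short-lived protein that sequesters BAK, BIM and NOXA. Its gene (chromosome 3, 95462779 to 95467099, plus strand, build NCBIM37, as are all gene positions here) has a single isoform of 3350 nt in the table. Mcl1 measured 185 and 150 FPKM off doxycycline, against 163 and 136 FPKM with it. The ranges overlap, and the log2 change of 0.16 (SE 0.15) did not pass (limma adjusted p = 0.411). It passed in 1 of 16 alternatives, that with the library number as a block. Compared within a number, Mcl1 was 1.13 times as high off doxycycline between the libraries numbered 0 and 1.11 times between those numbered 1. Mcl1 made up between 85.5% and 89.1% of the summed FPKM of the 3 pro-survival genes off doxycycline, and between 82.2% and 85.3% with it.

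Bcl2l1 (chromosome 2, 152593052 to 152657464, minus strand) encodes BCL-XL. It measured 22.4 and 25.4 FPKM off doxycycline, against 28.0 and 29.4 FPKM with it. The libraries do not overlap, but the log2 change of -0.26 (SE 0.10) missed the threshold (limma adjusted p = 0.0845). Bcl2l1 passed in 2 of 16 alternatives, with the condition medians set equal (limma adjusted p = 0.0454) and with the library number as a block. Of its 18 isoforms, 5 were listed at 0 in every library and 6 reached a mean of 1 FPKM. Those of 2417 nt and 2568 nt held most of the RNA. The 2417-nt isoform measured 8.94 and 13.7 FPKM off doxycycline, against 10.4 and 13.4 FPKM with it. The 2568-nt isoform measured 8.87 and 6.49 FPKM off doxycycline, against 10.9 and 7.37 FPKM with it. Both vary more with the library number than with the condition.

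Bcl2, which gave the family its name, was close to silent. It measured 0.0770 and 0.0795 FPKM off doxycycline, against 0.128 and 0.0951 FPKM with it, and was not tested. From the steps between low values, about 26 fragments lay behind Bcl2 in the library off doxycycline numbered 1 and 31 in that with doxycycline, which does not resolve a difference. The Bcl2 locus (chromosome 1, 108434755 to 108610851, minus strand) is also overlapped by another gene on the opposite strand, D630008O14Rik.

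BAX and BAK are the proteins that form the pore once activated, and each can do so without the other. Bax (chromosome 7, 52717065 to 52722268, minus strand) had the highest mean of the 10 members in both conditions, with 180 and 219 FPKM off doxycycline, against 182 and 202 FPKM with it. Bak1 (chromosome 17, 27156755 to 27165954, minus strand) measured 43.4 and 55.2 FPKM off doxycycline, against 47.96 and 56.76 FPKM with it. For both genes the ranges overlap and the libraries numbered 1 are the higher ones in each condition. Neither the log2 change of Bax (0.05, SE 0.13, limma adjusted p = 0.764) nor that of Bak1 (-0.09, SE 0.15, limma adjusted p = 0.656) passed. Over the alternatives the change of Bax ran from -0.09 to 0.21 and that of Bak1 from -0.26 to 0.08.

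Bok was the member with the largest change. BOK resembles BAX and BAK in sequence, and is kept scarce by degradation at the endoplasmic reticulum. The gene (chromosome 1, 95582082 to 95592339, plus strand) measured 3.97 and 3.91 FPKM off doxycycline, against 7.95 and 8.07 FPKM with it. The gap between conditions is far wider than the spread within either. The log2 change was -0.94 (SE 0.09, limma adjusted p = 0.00289), with ratios of 0.499 between the libraries numbered 0 and 0.485 between those numbered 1. Of all genes tested, 382 (2.88%) fell further. Bok passed in all 16 alternative analyses, with log2 changes from -1.005 to -0.83. In the libraries numbered 1, about 234 fragments lay behind Bok off doxycycline and 471 with it.

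Both assembled isoforms of Bok were lower off doxycycline. The 1370-nt isoform of 5 exons measured 3.61 and 3.48 FPKM off doxycycline, against 6.86 and 7.56 FPKM with it. The 2184-nt isoform of 4 exons measured 0.364 and 0.426 FPKM off doxycycline, against 1.09 and 0.515 FPKM with it. The shorter isoform held 90.0% of the gene's FPKM off doxycycline and 89.9% with it, as means of 2 libraries. Because Bok is a minor effector transcript, it made up only 1.41% to 1.74% of the summed effector FPKM off doxycycline, and 3.03% to 3.34% with it.

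**Figure D2:**
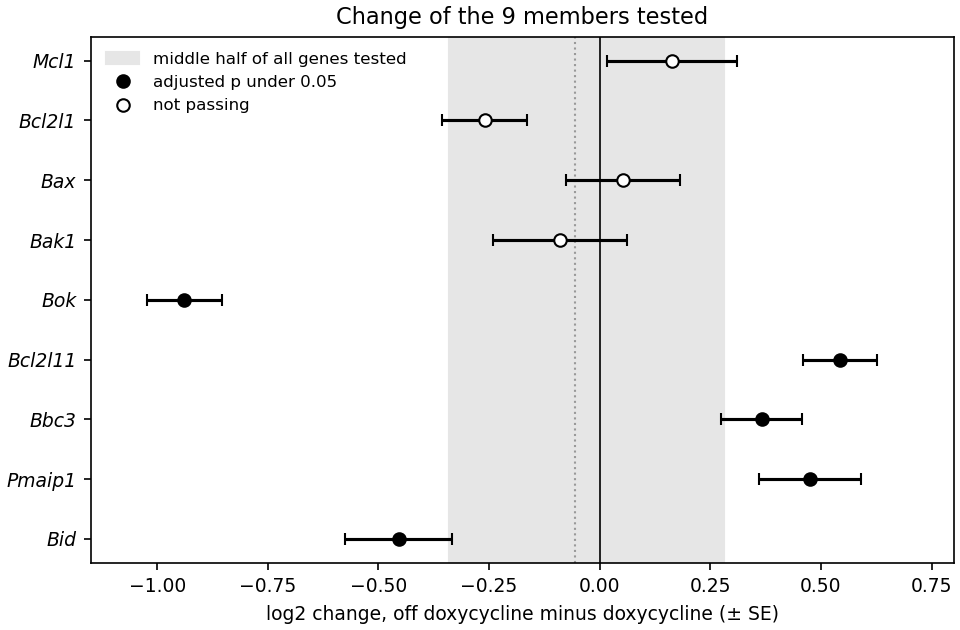
Log2 change off doxycycline minus with doxycycline on the log2(FPKM + 0.5) scale, with its SE, for the 9 members tested. Filled points passed limma at an adjusted p under 0.05, and the grey band spans the interquartile range of all genes tested. Bok lies at -0.94, far left of the band, and Bcl2l11 at 0.54 is farthest to the right.

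Bcl2l11 had the largest rise of the members. It encodes BIM, a BH3-only protein that binds every pro-survival member and can activate BAX directly, and it is a known target of the miR-17 and miR-92a families. The gene (chromosome 2, 127951731 to 127988283, plus strand) measured 13.0 and 13.6 FPKM off doxycycline, against 8.80 and 9.15 FPKM with it. All values off doxycycline exceed all values with it. The log2 change was 0.54 (SE 0.08, limma adjusted p = 0.00849), with ratios of 1.47 and 1.49 between the libraries numbered 0 and those numbered 1. Of all genes tested, 1786 (13.5%) rose further. The call was lost when only isoforms that match an annotated transcript were summed (limma adjusted p = 0.109) and when the gene was read from its top isoform by level (0.161), and held in the other 14 of 16 alternatives. Over all 16 the adjusted p ran from 0.00254 to 0.161.

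The Bcl2l11 signal is spread over 17 isoforms, of which 5 reached a mean of 1 FPKM. The most abundant, of 5036 nt and 4 exons, measured 4.62 and 4.72 FPKM off doxycycline, against 3.63 and 3.73 FPKM with it. A 4914-nt isoform of 5 exons measured 2.24 and 2.72 FPKM off doxycycline, against 1.63 and 1.94 FPKM with it. Both were higher off doxycycline in each library. A 4912-nt isoform measured 1.18 and 0.899 FPKM off doxycycline and stood at 0.000210 FPKM in one library with doxycycline and at 0 in the other. The 2301-nt isoform lay the other way, at 0.305 and 0.714 FPKM off doxycycline, against 0.922 and 1.14 FPKM with it. The 5036-nt isoform held 35.1% of the gene's FPKM off doxycycline and 41.0% with it. The 4912-nt isoform covers nearly the same span as the 5036-nt isoform, and how the authors' software divided fragments between them is uncertain.

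Bbc3 encodes PUMA and Pmaip1 encodes NOXA, the BH3-only proteins best known as p53 targets. NOXA binds chiefly MCL1, whereas PUMA binds all pro-survival members. Bbc3 (chromosome 7, 16893680 to 16903554, plus strand) measured 16.8 and 18.4 FPKM off doxycycline, against 13.1 and 14.0 FPKM with it. The log2 change was 0.37 (SE 0.09, limma adjusted p = 0.0309), with ratios of 1.29 and 1.31 within the numbers. Leaving out any 1 of the 4 libraries took the call away (limma adjusted p = 0.0539 and 0.106 without the libraries off doxycycline numbered 0 and 1, and 0.166 and 0.0906 without those with it), in a range from 0.00544 to 0.558 over 16 alternatives. It was also lost without a filter on low values (0.120), with isoforms that match an annotated transcript alone (0.348) and with the top isoform by level (0.558).

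The main Bbc3 isoform of 1814 nt did not separate the conditions, with 9.69 and 12.3 FPKM off doxycycline, against 9.67 and 10.1 FPKM with it. A 1746-nt isoform with the same number of exons measured 1.72 and 1.69 FPKM off doxycycline, against 0.320 and 0.112 FPKM with it. A 1758-nt isoform measured 3.19 and 2.16 FPKM off doxycycline, against 1.01 and 1.81 FPKM with it. These isoforms each have 4 exons over nearly the same span, and how the authors' software divided fragments between them is uncertain.

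Pmaip1 (chromosome 18, 66618187 to 66625204, plus strand) has a single isoform of 2717 nt. It measured 7.06 and 6.12 FPKM off doxycycline, against 4.87 and 4.33 FPKM with it. Each library off doxycycline lies above each with it. The log2 change was 0.47 (SE 0.12, limma adjusted p = 0.0284), with ratios of 1.45 and 1.41 within the numbers. Pmaip1 lost its call without the library off doxycycline numbered 0 (limma adjusted p = 0.105) and without that with doxycycline numbered 1 (0.114), in a range from 0.00579 to 0.155 over 16 alternatives. It was also lost without a filter on low values (0.155), with isoforms that match an annotated transcript alone (0.0751) and with the top isoform by level (0.0912). In each of these settings the values of Pmaip1 and its log2 change of 0.47 stayed the same, since it has a single, annotated isoform. Only the other genes in the fit and the adjustment differed.

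Bid ran against the other BH3-only genes. BID links death receptors to mitochondria, since caspase-8 cuts it into its active form. The gene (chromosome 6, 120841948 to 120866872, minus strand) measured 19.9 and 23.5 FPKM off doxycycline, against 28.0 and 31.7 FPKM with it. The conditions do not overlap. The log2 change was -0.45 (SE 0.12, limma adjusted p = 0.0363), with ratios of 0.710 and 0.741 within the numbers. The Bid call was lost without the library off doxycycline numbered 0 (limma adjusted p = 0.111) and without either library with doxycycline (0.0550 and 0.159 without numbers 0 and 1). It was also lost when the median change of all genes was set to 0 (0.0523), without a filter on low values (0.207) and with isoforms that match an annotated transcript alone (0.0508), in a range from 0.00290 to 0.207 over 16 alternatives. Bcl2l13, a relative of the family, overlaps the Bid locus on the opposite strand. The libraries are strand-specific, and Bcl2l13 measured 16.0 and 15.5 FPKM off doxycycline, against 18.9 and 17.4 FPKM with it.

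The lower level of Bid lay mostly in its main isoform, of 2189 nt and 6 exons. This isoform measured 9.55 and 10.6 FPKM off doxycycline, against 18.4 and 16.7 FPKM with it. The isoforms of 2340 nt (3.69 and 5.51 FPKM off doxycycline, against 3.10 and 7.69 FPKM with it) and 2415 nt (2.93 and 4.64 FPKM, against 4.02 and 3.57 FPKM) overlapped between the conditions. The main isoform held 46.7% of the gene's FPKM off doxycycline and 59.3% with it.

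**Figure D3:**
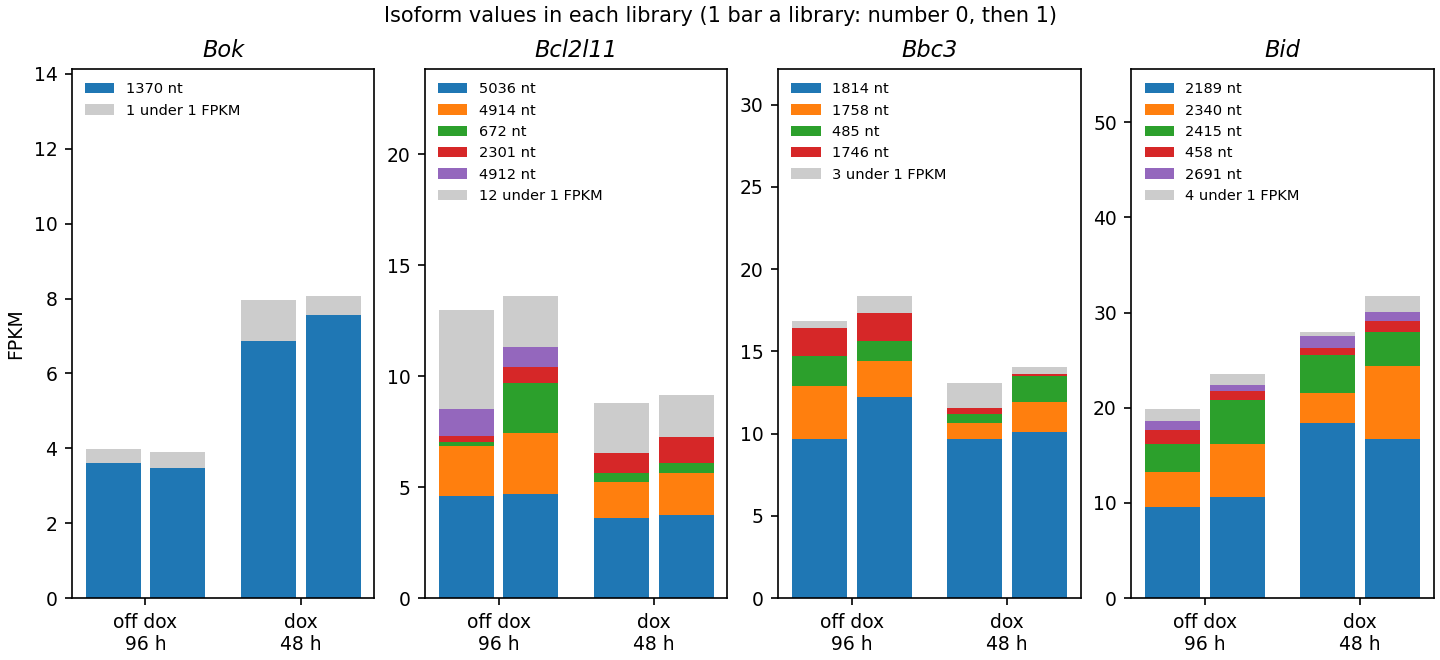
FPKM of the isoforms of Bok, Bcl2l11, Bbc3 and Bid, stacked, with 1 bar per library (off doxycycline for 96 h left, doxycycline for 48 h right, number 0 before 1). Coloured segments are isoforms that reach a mean of 1 FPKM in a condition, named by length, and grey is the rest. The blue segment shrinks off doxycycline in Bok and Bid and is larger in Bcl2l11, with 4.62 and 4.72 FPKM against 3.63 and 3.73.

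Tested isoform by isoform, no member isoform passed. Of 29 member isoforms with a mean of at least 1 FPKM, limma called 0 after adjustment over 32943 isoforms, where 0% of all isoforms were called, and the lowest adjusted p was 0.146. At an unadjusted p under 0.05 limma had 5 member isoforms, beside 18.4% of all isoforms. These 5 were the 1370-nt isoform of Bok, the 2189-nt isoform of Bid, the 1746-nt isoform of Bbc3, the 4912-nt isoform of Bcl2l11 and the only isoform of Pmaip1, named after their values were seen. Of these 5, those of Bbc3 and Bcl2l11 reached the minimum of 1 FPKM only off doxycycline, where they are high. Their p-values and their part in the count of 5 are no support for a rise. The isoform values above are therefore a description, and only the sums per gene carry calls.

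Summed by class, the conditions overlapped. The 4 BH3-only genes summed to 59.2 ± 3.46 FPKM off doxycycline and 57.0 ± 3.24 FPKM with it (SD, n = 2 each). The 3 effectors summed to 253 ± 35.7 FPKM off doxycycline and 252 ± 20.4 FPKM with it. The 3 pro-survival genes summed to 192 ± 22.0 FPKM off doxycycline and 178 ± 18.3 FPKM with it. BH3-only FPKM amounted to 27.4% and 35.0% of pro-survival FPKM off doxycycline, against 28.6% and 35.9% with it, so this ratio differed more between the numbers than between the conditions.

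Within the BH3-only class the makeup differed. Bid held 35.0% and 38.2% of the class off doxycycline, against 51.1% and 53.6% with it. Bbc3 held 29.7% and 29.8% off doxycycline, against 23.9% and 23.7% with it. Bcl2l11 held 22.9% and 22.1% off doxycycline, against 16.1% and 15.4% with it. By level, Bid stood just below Bcl2l1 off doxycycline and just above it with doxycycline, in both cases with overlapping ranges. Bok stood below Pmaip1 off doxycycline and above it with doxycycline, in each case with ranges apart. Off doxycycline the ranges of Bax and Mcl1 overlapped as well, and the other neighbours in either order were apart.

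**Figure D4:**
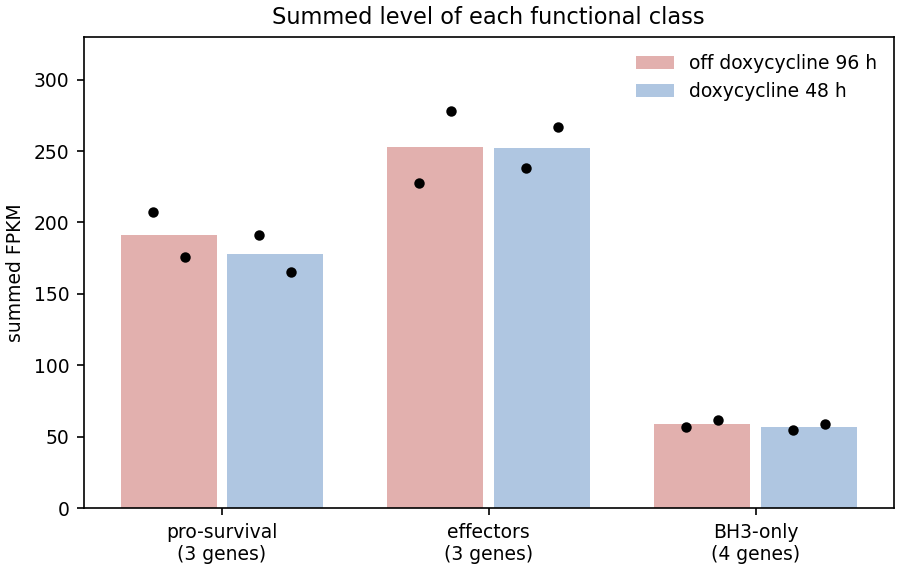
Summed FPKM of the pro-survival (3 genes), effector (3) and BH3-only (4) members off doxycycline for 96 h (red, left) and with doxycycline for 48 h (blue, right). Bars are means and points the 2 libraries. Each class is nearly level between conditions, with 59.2 and 57.0 FPKM for the BH3-only genes.

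Because the study concerns microRNA targets, the annotated 3′ untranslated regions of the members were searched for seed sites of 11 microRNA families. The levels of the microRNAs themselves were not measured in these libraries. The mature sequences (RefSeq, GRCm38.p6, written 5′ to 3′) of the families whose sites are described below follow, with the seed, bases 2 to 8, in capitals. MiR-291a-3p, miR-294-3p and miR-302b-3p share a seed, and the miR-17 family has nearly the same seed moved by a single base.
miR-291a-3p: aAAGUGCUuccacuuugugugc
miR-294-3p: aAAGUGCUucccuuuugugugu
miR-302b-3p: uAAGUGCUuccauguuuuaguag
miR-17-5p: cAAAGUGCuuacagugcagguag
miR-20a-5p: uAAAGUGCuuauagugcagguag
miR-92a-3p: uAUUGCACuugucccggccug
miR-30a-5p: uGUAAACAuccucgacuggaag
miR-148a-3p: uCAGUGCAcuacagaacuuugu
miR-29a-3p: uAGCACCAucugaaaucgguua
let-7a-5p: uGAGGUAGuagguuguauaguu

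A site of 7 bases was the reverse complement of a seed, or that of its bases 2 to 7 followed by A. A site of 8 bases was the full complement followed by A. The motifs, on the transcript's own strand only, were AGCACTT (miR-291a-3p), GCACTTT (miR-17-5p), TTTGCAC (miR-19b-3p), GTGCAAT (miR-92a-3p), TGCTGCT (miR-15a-5p), CTACCTC (let-7a-5p), TGGTGCT (miR-29a-3p), CACTGCC (miR-34a-5p), TGTTTAC (miR-30a-5p), TGCACTG (miR-148a-3p) and TACTTGA (miR-26a-5p). The motifs of miR-291a-3p and miR-17-5p overlap, as do those of miR-19b-3p and miR-148a-3p, so that a single stretch can count for both. The longest annotated region of each gene in GENCODE mouse release 21 (GRCm38) was used, and a match is a description of letters, not a shown site.

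Bcl2l11 held matches to 8 of the 11 families, the most of the members, in a region of 4218 nt that belongs to its 5036-nt isoform. It held 3 matches to miR-291a-3p, where 44.0% of the 3139 regions of like length (within 1.5 times) hold at least 1, and 2 to miR-17-5p, where 45.9% do. It held 4 matches to miR-148a-3p (45.3% of like regions hold any) and 2 to miR-92a-3p (30.5%). The matches of 8 bases for miR-17-5p, miR-92a-3p, miR-30a-5p and miR-148a-3p are shown first, then the miR-291a-3p matches, with the matching bases in capitals.
Bcl2l11, miR-17-5p: ccgactggaGCACTTTActgtctcag
Bcl2l11, miR-92a-3p: actgtacctGTGCAATActgctgtaa
Bcl2l11, miR-30a-5p: caagagaggTGTTTACAtgtggcgtg
Bcl2l11, miR-148a-3p: tttacgtttTGCACTGAtgaattttg
Bcl2l11, miR-291a-3p: cccgactggAGCACTTtactgtctca
Bcl2l11, miR-291a-3p: tggtggaggAGCACTTtctaacctgt
Bcl2l11, miR-291a-3p: gccgagtaaAGCACTTgtcttccaca

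The first of these miR-291a-3p matches, at bases 2122 to 2128 after the stop codon, lies on the miR-17-5p match at bases 2123 to 2130. The second, at bases 1448 to 1454, lies on the other miR-17-5p match, at bases 1449 to 1455. The miR-148a-3p match of 8 bases, at bases 4080 to 4087, overlaps a miR-19b-3p match at bases 4078 to 4084. These matches are thus not separate stretches. Bok, the member that fell furthest, held no match to any of the 11 families in its region of 602 nt, where between 6.20% and 13.3% of 4290 like regions hold each. Bid held matches to 2 families, 1 of them miR-17-5p (23.1% of like regions), and Pmaip1 to 2. The Bid region is that of its 2415-nt isoform, not of the 2189-nt isoform in which most of its difference lay. The regions of Pmaip1, Bax and Bak1 come from annotated transcripts that no measured isoform was matched to. Bbc3 held matches to 3 families, with 1 of 8 bases to miR-148a-3p. Among members that did not pass the test, Mcl1 held matches to 6 families, Bak1 to 5, and Bcl2l1 and Bax to 1 each. Bcl2, which was not tested, held matches to 6. These counts depend on the length of the region, which ran from 224 nt in Bax to 5086 nt in Bcl2. A miR-17-5p match, for instance, is held by 2.60% of regions of like length to that of Bax and 49.9% of those to Bcl2. The Mcl1 stretch shared by miR-291a-3p and miR-17-5p, matches of 8 bases in Mcl1, Bbc3 and Bcl2l1, and the match of 7 bases in Bid read as follows.
Mcl1, miR-17-5p: gacttcagaGCACTTTAtgtagttga
Mcl1, miR-92a-3p: ccttgtgaGTGCAATAggggactctt
Mcl1, miR-29a-3p: tcttaaccaTGGTGCTAttcactggg
Bbc3, miR-148a-3p: cagcctgggTGCACTGAtggagatac
Bid, miR-17-5p: gagaaagagGCACTTTtagtctcaag
Bcl2l1, let-7a-5p: ggggcttccCTACCTCAggcaggaag

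The rest of the pathway was read from 7 lists of 75 genes, 67 of them tested. Of these, 21 were higher and 9 lower, beside 19.4% higher and 20.9% lower of all genes tested, and the counts of the single lists below stand beside the same shares. Among other BCL2-like genes, 1 of 5 tested rose and 1 fell. Bcl2l14 measured 4.85 and 5.42 FPKM off doxycycline, against 2.80 and 3.39 FPKM with it (log2 change 0.65, limma adjusted p = 0.0159). Bcl2l15 fell to 1.18 and 1.52 FPKM off doxycycline, against 3.48 and 2.67 FPKM with it (-0.95, limma adjusted p = 0.0128). Bcl2l2, which encodes the pro-survival protein BCL-W, measured 5.19 and 6.61 FPKM off doxycycline, against 4.86 and 3.77 FPKM with it, and did not pass (limma adjusted p = 0.108). The 4 Bcl2a1 genes were listed at 0 in every library.

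Of 7 further BH3-only genes, limma called 1, Hrk, which encodes Harakiri. Hrk stood at 0.335 and 0.211 FPKM off doxycycline, against 1.18 and 1.07 FPKM with it. It reached the minimum of 1 FPKM only through the doxycycline libraries, where it is high, so its test and the count of 1 lower gene are no support for a fall. Bik measured 1.80 and 1.48 FPKM off doxycycline, against 1.07 and 0.592 FPKM with it, and missed the threshold (limma adjusted p = 0.0527). Bik reached the minimum only off doxycycline, and Bmf overlapped (log2 change -0.21, limma adjusted p = 0.368). The list's median change was -0.04, close to the -0.06 of all genes tested.

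Downstream of the mitochondrion, 2 of 9 genes tested for the apoptosome and caspases rose and none fell, beside 19.4% higher and 20.9% lower of all genes. Apaf1, the scaffold that cytochrome c assembles into the apoptosome, measured 12.7 and 11.7 FPKM off doxycycline, against 8.88 and 7.75 FPKM with it (log2 change 0.53, limma adjusted p = 0.0165). Casp2 measured 23.6 and 22.9 FPKM off doxycycline, against 15.5 and 12.5 FPKM with it (0.72, limma adjusted p = 0.0106). Cycs, encoding cytochrome c, measured 24.0 and 37.6 FPKM off doxycycline, against 38.4 and 51.7 FPKM with it, and did not pass (limma adjusted p = 0.133). Casp8, whose product cuts BID, was below the minimum for testing, at 0.577 and 0.589 FPKM off doxycycline, against 0.116 and 0.221 FPKM with it. The list's median was -0.01.

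Inhibitors of apoptosis and genes of mitochondrial release went both ways, with 3 higher and 4 lower of 14 and a median of -0.06. Birc3, encoding cIAP2, measured 8.88 and 7.20 FPKM off doxycycline, against 1.87 and 2.11 FPKM with it (log2 change 1.77, limma adjusted p = 0.00233). Birc5, encoding survivin, measured 73.8 and 89.9 FPKM off doxycycline, against 108 and 134 FPKM with it (-0.56, limma adjusted p = 0.0377). Diablo, encoding the caspase-activating protein SMAC, measured 20.9 and 22.7 FPKM off doxycycline, against 30.6 and 28.9 FPKM with it (-0.44, limma adjusted p = 0.0168).

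Among regulators of MCL1, BIM and BID protein, 1 of 10 rose and 1 fell, with a median of -0.05. March5, encoding a mitochondrial ubiquitin ligase that promotes MCL1 turnover, measured 60.8 and 58.8 FPKM off doxycycline, against 102 and 99.9 FPKM with it (log2 change -0.75, limma adjusted p = 0.00374). Fbxw7, encoding another ligase receptor for MCL1, measured 11.3 and 12.5 FPKM off doxycycline, against 9.63 and 9.52 FPKM with it (0.30, limma adjusted p = 0.0499). Mapk8, encoding the kinase JNK1, did not pass (-0.31, limma adjusted p = 0.115).

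The p53 list had 10 genes higher and 1 lower of 14 tested, beside 19.4% higher and 20.9% lower of all genes, and a median change of 0.47, against -0.06 over all genes. It was chosen with the rise of several of its genes known, so that its direction is no independent evidence. Its 3 largest changes were those of Cdkn1a, which encodes p21 (log2 change 2.34, limma adjusted p = 0.00147), Btg2 (1.74, 0.00180) and Perp (1.11, 0.00328). Mdm2, the negative regulator of p53 and itself a p53 target, measured 38.1 and 46.7 FPKM off doxycycline, against 44.3 and 45.1 FPKM with it, and Zmat3 and Sesn2 overlapped too. Of 8 transcription factors of BH3-only genes, 4 rose and 1 fell, with a median of 0.26. Jun measured 4.02 and 4.74 FPKM off doxycycline, against 1.39 and 1.43 FPKM with it (log2 change 1.35, limma adjusted p = 0.00278). Myc measured 5.47 and 7.57 FPKM off doxycycline, against 17.0 and 18.4 FPKM with it (-1.39, limma adjusted p = 0.00455). Trp73, a p53 relative, measured 2.47 and 2.62 FPKM off doxycycline, against 1.23 and 1.69 FPKM with it (0.65, limma adjusted p = 0.0267). Foxo1 and Foxo3 were higher by 0.36 and 0.30 (limma adjusted p = 0.0417 and 0.0443). Foxo4 (0.21, 0.114), Ddit3 (-0.40, 0.0842) and E2f1 (-0.09, 0.402) did not pass. Whether the FOXO factors, known activators of Bcl2l11, bear on its level here was not tested.

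**Figure D5:**
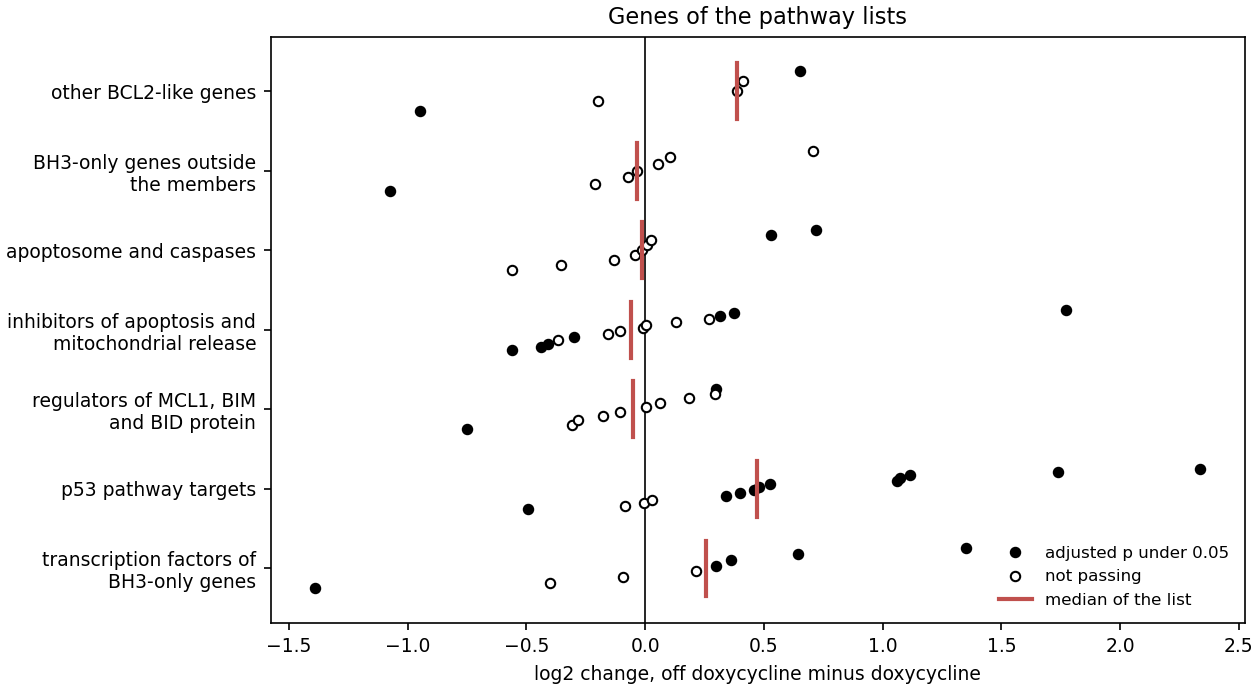
Log2 change off doxycycline minus with doxycycline of 67 genes in 7 pathway lists, 1 row per list. Filled points passed limma at an adjusted p under 0.05 and the red bar is the list's median. Most points of the p53 list lie right of 0, with a median of 0.47, and the other lists spread to both sides.

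Profiles over the 4 libraries, as log2 values centred on their mean, were compared between each member that passed and the 67 list genes. By Euclidean distance Bok lay nearest to March5 (0.19) and Hrk (0.22), and Bcl2l11 to Phlda3 (0.14) and Sesn1 (0.16). Hrk was among the tested genes only through the doxycycline libraries, where it is high, so its nearness to Bok is no support. Bbc3 lay nearest to Trp53 (0.07) and Foxo3 (0.09), Pmaip1 to Apaf1 (0.08) and Sesn1 (0.10), and Bid to Aen (0.05) and Dffb (0.11). Over 4 libraries such a distance reads little more than the size and direction of the change.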

How the data were processed

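PolyA RNA of mouse embryonic stem cells was sequenced in 4 libraries. The deposited values are FPKM per isoform. The submitters' processing notes name TopHat2 2.0.9, Cufflinks 2.1.1 and build NCBIM37, and the isoforms come from Cuffmerge, per the file headers. The library total behind FPKM is not given in the sources used here. The table was deposited in 2 identical copies, and 25 gene symbols turned into dates (236 isoforms) were restored from the table of the doxycycline libraries. That second table served for symbols only, and 5447 of the 362054 values it shares with the first differ.

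Isoforms of at least 200 nt with class = or j (141569 of 181027) were summed per gene. The 13268 genes whose mean reached 1 FPKM in a condition were tested as log2(FPKM + 0.5), a scale that understates changes of low genes, with limma 3.58.1 (trend, R 4.3.3). Tests were two-sided, and p-values were adjusted over all of these genes by the Benjamini-Hochberg method. A permutation of 2 against 2 libraries cannot go below p = 0.333. Changes are off doxycycline minus with doxycycline. The numbers 0 and 1 could not be matched to the labels' replicates, so libraries were unpaired. The procedures were tested on simulated data.

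The library total and fragment length were searched for the setting that brought low values closest to whole fragments. In the libraries numbered 1, low values were then whole in 100% of cases within 0.1, which gives 46.66 M fragments off doxycycline and 46.96 M with it. In the libraries numbered 0, 41.3% were whole and the depth is unknown. Chance gives 20% at a single fixed setting, which is not the share to expect after a search. Other steps ran in Python 3.11.15 (numpy 2.4.6, pandas 2.3.3).

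Members and lists were chosen with earlier results of these data known. The genes named were the 10 members, Ago2, and the 3 list genes with the largest absolute change in each list, with the 2 list genes nearest to each member that passed. Other genes are named after their values were seen. Alternatives changed the pseudocount, filter, scaling, isoform rule, trend and the libraries included.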

Additional observations from a re-analysis of the deposited data

How the results depend on the processing

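Bok stayed past the threshold in all 16 alternatives, Bcl2l11 in 14, Pmaip1 in 11, Bid in 10 and Bbc3 in 9, and none of these 5 changed sign. The number of members called was 5 of 9 (3 higher, 2 lower), beside 40.3% of all 13268 genes tested. It was 2 of 10 (1 and 1) without a filter on low values, beside 5.35% of 31879 genes. With isoforms of class = only it was 1 of 9 (0 and 1), beside 20.7% of 12415 genes. With the most abundant isoform alone it was 2 of 9 (0 and 2), beside 16.2% of 12516 genes. With condition medians set equal it was 6 (3 and 3), adding Bcl2l1 (limma adjusted p = 0.0454), beside 43.1% of all genes. With the median change of all genes set to 0, a setting chosen after seeing the data, it was 4 (3 and 1), beside 38.8%. Leaving out 1 library gave 2 to 4 members called, 1 to 2 higher and 1 to 2 lower, and 3065 to 4197 genes called of all genes, in fits that take the lone library of a condition to vary like the others. Over all genes the 5351 calls became 1704 without a filter, 2565 with class = only and 2023 with the most abundant isoform. The causes were not tested. The share of higher genes among calls was 48.2%, against 39.0% with condition medians set equal, 56.2% with the median change set to 0 and 67.7% with TPM, where the median change of all genes moved to 0.10 from -0.06 and the 5 members kept their calls. The sign of Bax and Bak1 varied, at 0.21 and 0.07 with TPM and -0.01 and -0.16 with condition medians set equal. Calls of member isoforms stayed at 0 in every alternative run. Matches of 8 bases alone left 12 pairs of member and microRNA family, where 7 or 8 bases gave 34. With the library number as a replicate block, limma called 8123 genes (61.2% of all tested) and 7 members (4 higher, 3 lower). The block added Mcl1 (limma adjusted p = 0.0318) and Bcl2l1 (0.0152). Across genes, differences between numbers correlated between the conditions at 0.46. Low values were whole fragments in 100% of cases in both libraries numbered 1, against 41.3% in both numbered 0. The numbers thus mark some shared feature, but with 2 pairs they do not show a shared culture or day. Bcl2, at about 26 and 31 fragments in the libraries numbered 1 off and with doxycycline, was too low to test.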

Other observations

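Some isoforms of the members were far higher in 1 library, or in the libraries of 1 number, than in the others. A 4809-nt isoform of Bcl2l11 measured 1.84 FPKM in the library off doxycycline numbered 0, and 0.000472 FPKM in that numbered 1, against 0.00346 and 0.000277 FPKM with doxycycline. The 672-nt isoform of Bcl2l11 measured 0.166 and 2.28 FPKM off doxycycline, against 0.369 and 0.449 FPKM with it. A 416-nt isoform of Bak1 measured 0.727 and 6.95 FPKM off doxycycline, against 1.72 and 11.4 FPKM with it, so that the libraries numbered 1 were the higher ones in both conditions. These values come without a test.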
